A study of Mus musculus with 2 samples.

Results

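Genes of the TGF-beta and BMP pathway were compared between stem cells generated with a small molecule and the parental cells they were set against, in mouse. The set held ligands, their latency proteins, receptors, secreted antagonists, Smad proteins, corepressors and direct targets, taken by a pattern on the gene symbol that the array annotation gives (such as Tgfb, Bmp, Acvr, Smad, Ltbp and Id). The pattern found 49 of the 11484 genes of the array, read by 51 probes, after 1 matching gene was left out. The pattern uses symbols alone, although it was set with earlier results of these data known. The cells generated with the small molecule, called generated cells here, came from passage 5 in medium for embryonic stem (ES) cells. The parental cells came from passage 1 in medium that contained fetal bovine serum. Both samples carried the labels embryo and C57/ICR. The labels do not name the small molecule or the parental cell type.

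Although 3 replicates of each sample are mentioned in the series design, 1 column of normalised intensities per sample was analysed here. Whether a column holds 1 array or a mean of replicates is not settled, and no spread between replicates is available. No test between the samples was therefore possible. Treatment, passage and medium differed together and cannot be told apart. Intensity is the brightness of a probe on a linear scale, and differences are given as log2 of generated over parental cells. A value under the 25th percentile of its column (93.4 in the generated cells and 93.8 in the parental cells) was called dim. A fold with 1 dim value is a lower bound, taken against that percentile. Genes dim in both samples have no fold. As a measure of error, the log2 differences of 612 genes with a pair of probes were used, and 1 probe scattered around its gene with an SD of 1.05, or 2.07-fold. The 2-fold rule used below is thus smaller than 1 probe SD, and 2 SD was 2.10, or 4.30-fold. The cell labels were checked against markers. Of 9 measured pluripotent cell markers 7 were 2-fold or more higher in the generated cells and none was lower, with Nanog (94.7 in generated and 77.7 in parental cells) and Klf2 (1691 in generated and 978 in parental cells) inside 2-fold. Of all measured genes 18.8% were 2-fold or more higher and 19.2% lower. Nanog was dim in the parental cells and just above the floor in the generated cells. Thy1 and S100a4, the only 2 of 12 fibroblast and mesenchyme markers measured, were brighter in the parental cells, with a summed intensity of 319 in the generated cells and 72521 in the parental cells.

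Ligands of this family are secreted dimers that bring together type I and type II receptors, which are serine/threonine kinases. TGF-beta, activin and Nodal signal mainly through Smad2 and Smad3, and BMPs mainly through Smad1, Smad5 and Smad9, while Smad4 is the partner common to both branches. In fibroblasts TGF-beta is a main inducer of extracellular matrix, and in cultured mouse ES cells BMP signalling through Id proteins supports self-renewal together with leukemia inhibitory factor.

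Most pathway genes that differed were dimmer in the generated cells. Of the 49 genes 24 were 2-fold or more lower, 6 were higher, 9 lay within 2-fold and 10 were dim in both samples. In bulk RNA of this kind, fewer cells of a type and less RNA per cell cannot be told apart. Of the 9766 array genes that exceeded the floor in a sample, 39 of them pathway genes, 22.6% were lower and 22.1% were higher by that rule. As shares of all measured genes, dim ones included, lower genes made up 49% of the pathway and 19.2% of the array, and higher genes 12.2% of the pathway and 18.8% of the array. The median log2 difference over all 49 genes was -1.16, against 0.07 over all 11484 genes, or -0.96 against -0.01 with dim values set to the floor. With no filter on dim values, 25 of the 49 genes were lower, beside 19.7% of all genes. All 24 lower and all 6 higher genes also passed 2-fold with dim values set to the floor, a rule by which 20.8% of the 9766 genes were lower and 20.5% higher. Nearest to the 2-fold line were Smurf1, 1.94-fold lower, Ltbp4, 1.85-fold lower, and Bambi-ps1, 1.86-fold higher, all inside it, and just past it lay Tgfbrap1, 2.24-fold lower.

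**Figure D1:**
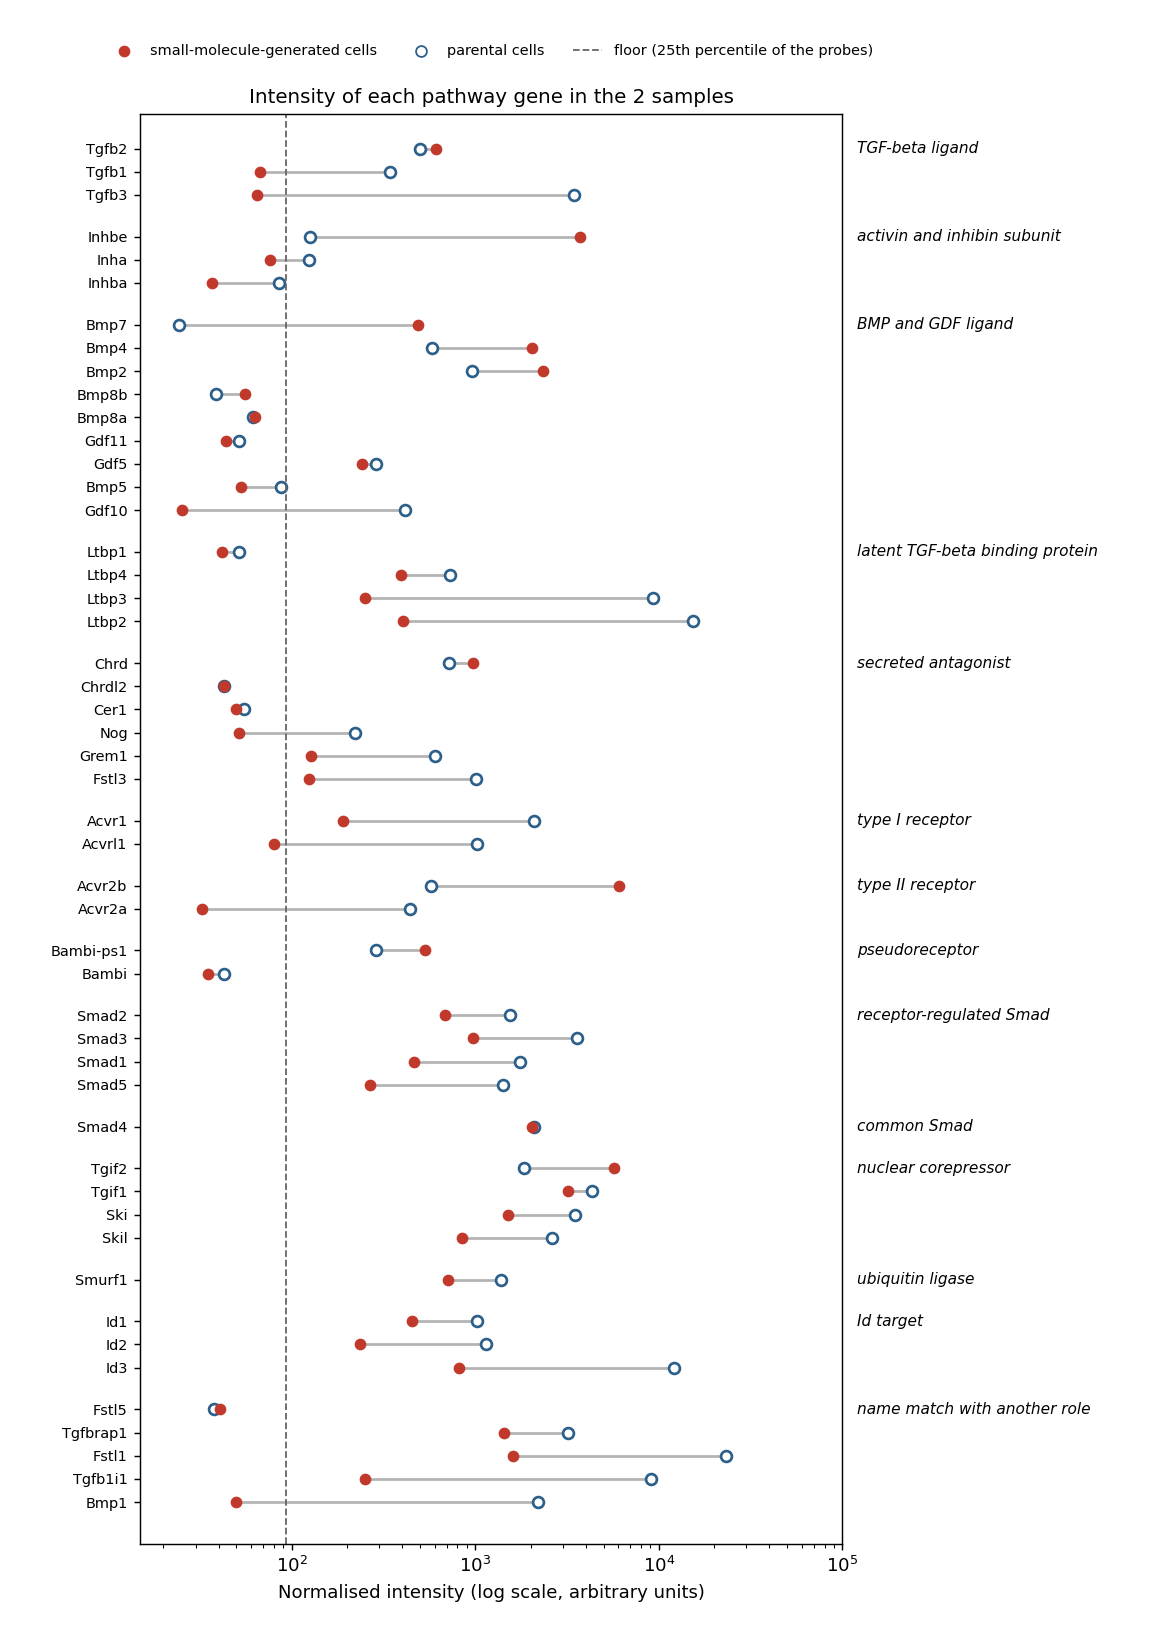
Normalised intensity (log axis, arbitrary units) of the 49 pathway genes, grouped by role, in small-molecule-generated cells (filled) and parental cells (open), 1 column of values each, with a line joining the 2 values of a gene and a dashed line at the floor of 93.4. The longest lines run to the right towards the parental value for Tgfb3, Ltbp2, Ltbp3, Bmp1 and Tgfb1i1, and towards the small-molecule-generated value for Inhbe and Bmp7.

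**Figure D2:**
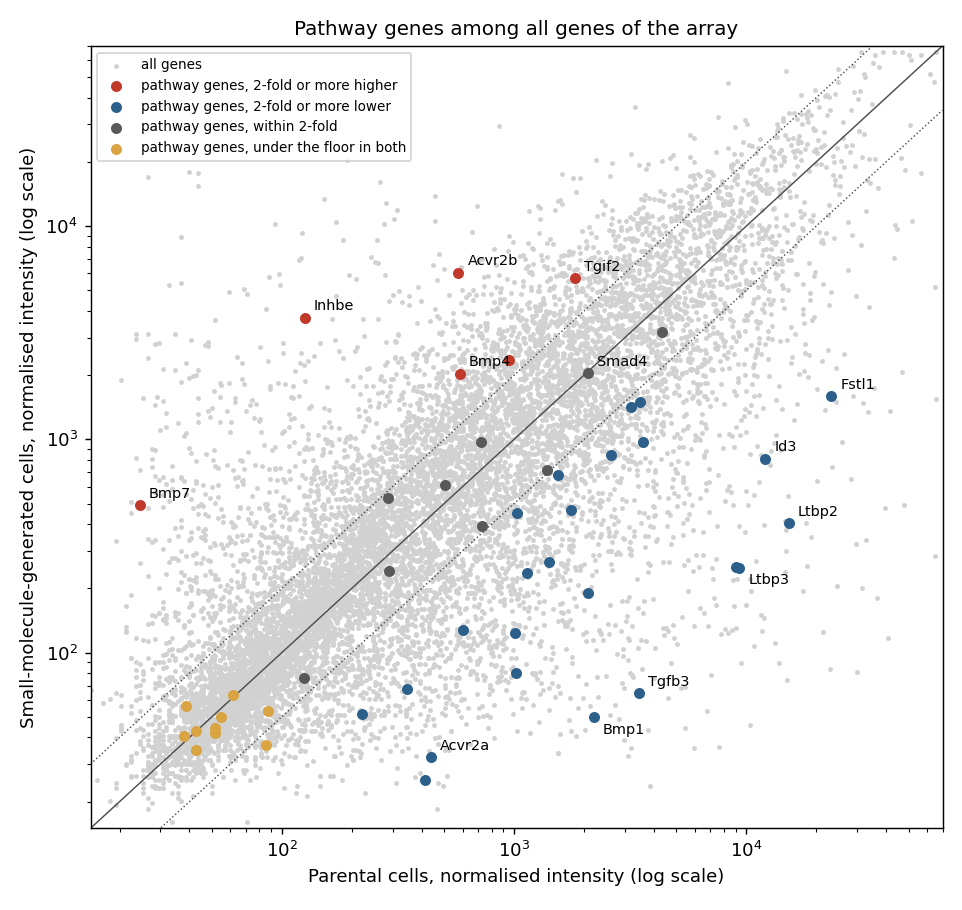
Normalised intensity in small-molecule-generated cells (vertical, log axis) against parental cells (horizontal, log axis) for all genes (grey) and the pathway genes (coloured by call), with the line of equality and dotted lines at 2-fold. Below the lower dotted line lie 25 pathway genes, of which Inhba was dim in both samples and is not called, and above the upper line lie 6.

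Differences of 4-fold or more were also mostly toward lower values. With dim values set to the floor, 15 pathway genes were at least 4-fold lower and 3 at least 4-fold higher, where 9.15% of all tested genes were lower and 6.32% higher to that extent. At 16-fold or more 5 were lower and 1 was higher, beside 1.81% and 0.993% of tested genes. The 5 were Tgfb3, Ltbp2, Ltbp3, Bmp1 and Tgfb1i1, and the 1 higher gene was Inhbe. On the same scale Ltbp2 had the 66th lowest difference of the 9766 genes, Ltbp3 the 67th, Tgfb3 the 68th, Tgfb1i1 the 72nd and Bmp1 the 117th. Inhbe had the 44th highest.

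**Figure D3:**
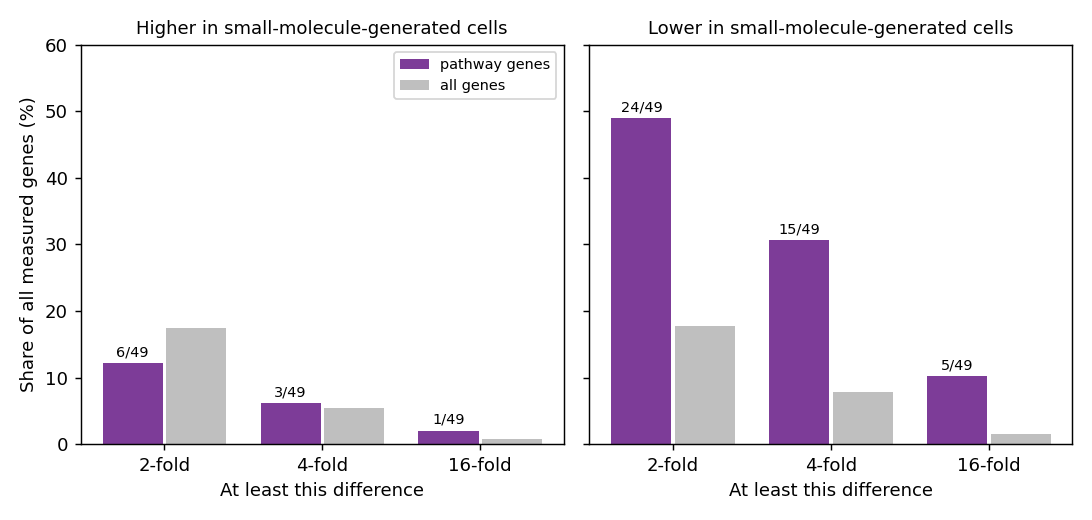
Share of all measured genes (%) that were at least 2-fold, 4-fold or 16-fold higher (left) or lower (right) in small-molecule-generated cells, with dim values set to the floor, for the 49 pathway genes (purple, with counts above the bars) and all 11484 genes (grey). Among lower genes the pathway bars stand above the grey bars at each size, with 24, 15 and 5 of 49 genes.

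The TGF-beta ligands differed among themselves. Tgfb3, a ligand of palate and lung development, was dim at 64.4 in the generated cells against 3447 in the parental cells, at least 36.9-fold lower. Tgfb1, the ligand most studied in fibrosis and immune control, was dim at 67.2 in the generated cells and at 345 in the parental cells, at least 3.69-fold lower. Tgfb2 was at 613 in the generated cells and 503 in the parental cells, a difference of 0.29 on the log2 scale that lay inside the probe error. So 2 of the 3 ligand genes were lower, beside 22.6% of tested array genes, and the third was close in both samples.

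Latent TGF-beta binding proteins hold the inactive ligand in the matrix, except LTBP2, which does not bind latent TGF-beta and is a protein of elastic microfibrils. Ltbp2 was at 406 in the generated cells and 15264 in the parental cells, 37.6-fold lower. Ltbp3 was at 250.1 in the generated cells and 9327 in the parental cells, 37.3-fold lower. Ltbp4 was at 394 in the generated cells and 730.3 in the parental cells, which is 1.85-fold lower and inside 2-fold, and Ltbp1 was dim in both samples (42 in generated and 51.8 in parental cells). Thus 2 of the 4 genes had large differences, 1 lay inside 2-fold and 1 had no fold. Of all measured genes 19.2% were 2-fold or more lower.

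The start regions of Ltbp2 and Ltbp3 are printed because their differences were of nearly the same size. Each window is 300 bases of RefSeq sequence in build GRCm38.p6, from 250 bases before to 50 after the start of the gene, 5′ to 3′ on the strand of the gene. Capitals mark CAGAC or its reverse complement GTCTG, the core of the site bound by Smad3 and Smad4, and GGCGCC, a palindrome found in GC-rich sites of Smad1 and Smad5. The window of Ltbp2 is chr12:84876442-84876741 on the minus strand and that of Ltbp3 chr19:5740650-5740949 on the plus strand.
Ltbp2: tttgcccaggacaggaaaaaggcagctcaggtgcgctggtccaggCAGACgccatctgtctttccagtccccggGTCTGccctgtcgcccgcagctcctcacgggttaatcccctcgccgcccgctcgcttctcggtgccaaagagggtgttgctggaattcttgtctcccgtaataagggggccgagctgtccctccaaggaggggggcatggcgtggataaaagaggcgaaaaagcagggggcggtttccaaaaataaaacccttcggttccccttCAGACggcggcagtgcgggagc
Ltbp3: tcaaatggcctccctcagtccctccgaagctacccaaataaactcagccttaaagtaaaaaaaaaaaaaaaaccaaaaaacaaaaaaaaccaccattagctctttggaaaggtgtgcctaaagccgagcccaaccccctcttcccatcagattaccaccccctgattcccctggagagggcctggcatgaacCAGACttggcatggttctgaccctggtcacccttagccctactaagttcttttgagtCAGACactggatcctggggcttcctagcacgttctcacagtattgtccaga
CAGAC occurred 3 times in the Ltbp2 window and 2 times in the Ltbp3 window, counting both strands. Their base composition was unlike, with 61% G and C and 20 CpG in Ltbp2 and 48% and 3 CpG in Ltbp3. GGCGCC was in neither.

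Activin and inhibin subunits included the pathway gene with the largest difference in the upward direction. Inhbe, which encodes the beta E subunit of activin E and is known mainly from liver, was at 3725 in the generated cells and 125 in the parental cells, 29.7-fold higher. Inha, the alpha subunit that turns activins into inhibins, was dim at 75.8 in the generated cells against 124 in the parental cells, within 2-fold. Inhba, the subunit of activin A, was dim in both samples (36.8 in generated and 85.2 in parental cells). Inhbe is read by 1 probe, as are 47 of the 49 pathway genes. Its start region, chr10:127351799-127352098 on the minus strand in the same build, is shown with the same marks because it belongs to the highest gene of the set.
Inhbe: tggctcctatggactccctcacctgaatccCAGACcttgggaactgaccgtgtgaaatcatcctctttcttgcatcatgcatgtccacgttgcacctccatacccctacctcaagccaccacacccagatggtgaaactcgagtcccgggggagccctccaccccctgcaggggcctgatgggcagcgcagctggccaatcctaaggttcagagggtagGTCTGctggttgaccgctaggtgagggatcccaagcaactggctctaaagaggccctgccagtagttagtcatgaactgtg
It held 2 copies of CAGAC, no GGCGCC and 6 CpG.

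Of the 9 measured BMP and GDF ligands 3 were higher, 1 was lower, 1 lay within 2-fold and 4 were dim. Over all measured genes 18.8% were higher and 19.2% lower. Bmp4, the BMP used to sustain mouse ES cells, was at 2036 in the generated cells and 584 in the parental cells, 3.48-fold higher. Bmp2, its closest relative, was at 2351 in the generated cells and 954 in the parental cells, 2.46-fold higher. Bmp7, a ligand of kidney and eye development, was at 491 in the generated cells and 24.4 in the parental cells, dim in the parental cells, and at least 5.23-fold higher. The difference of Bmp2, 1.30 on the log2 scale, was little larger than the probe SD of 1.05, and that of Bmp4, 1.80, lay inside 2 SD. Gdf10, a relative of Bmp3, went the other way, dim at 25.2 in the generated cells and at 414 in the parental cells, at least 4.43-fold lower. Gdf5, a ligand of joint formation, was at 241 in the generated cells and 288 in the parental cells. Bmp5, Bmp8a, Bmp8b and Gdf11 were dim in both samples, with values between 38.8 and 87.2.

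Secreted antagonists bind ligands outside the cell. None of the 6 in the name pattern was higher by 2-fold, beside 18.8% of all measured genes. Lefty1, an antagonist of Nodal outside the pattern, was higher and is given with the other components below. Grem1, which encodes the BMP antagonist gremlin, was at 127 in the generated cells and 605 in the parental cells, 4.76-fold lower. Nog, which encodes noggin, was dim at 51.8 in the generated cells against 221 in the parental cells, at least 2.36-fold lower. With the dim value at the floor its log2 difference, -1.24, was little larger than the probe SD. Fstl3, an antagonist of activin, had 2 probes that both were lower, at 118 and 130 in the generated cells against 1651 and 612 in the parental cells. Averaged on the log2 scale it was 8.10-fold lower, while its probes alone gave log2 differences of -3.80 and -2.24. The probe SD of 1.05 is that of 1 probe around its gene, and the gap between 2 probes of a gene scatters more widely. Chrd, which encodes the BMP antagonist chordin, was at 968 in the generated cells and 723 in the parental cells, inside 2-fold. Cer1 (49.7 in generated and 54.9 in parental cells), an antagonist of Nodal and BMP, and Chrdl2 (42.7 in both the generated and the parental cells) were dim.

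Both measured type I receptor genes were lower, as were 22.6% of tested array genes. Acvr1, a BMP receptor also called ALK2, was at 190 in the generated cells and 2080 in the parental cells, 10.9-fold lower. Acvrl1, or ALK1, a receptor known mainly from endothelium, was dim at 80.6 in the generated cells against 1023 in the parental cells, at least 10.9-fold lower. Endothelial markers, set beside it, did not run one way. Of 8 measured of 10 endothelial markers 2 were higher, 2 were lower, 3 lay within 2-fold and Pecam1 was dim in both samples. Over all measured genes 18.8% were higher and 19.2% lower. The summed intensity of the markers was 4489 in the generated cells and 19222 in the parental cells. Most of both sums was Plvap (2798 in generated and 17942 in parental cells), and without it they were 1692 in the generated cells and 1280 in the parental cells. The part of endothelial cells in the Acvrl1 difference was not tested.

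The paired type II receptors of activin, which also serve BMPs, lay in opposite directions. Acvr2b was at 6052 in the generated cells and 576 in the parental cells, 10.5-fold higher. Acvr2a was dim at 32.3 in the generated cells against 439 in the parental cells, at least 4.70-fold lower. The log2 differences were 3.39 for Acvr2b and, with its dim value at the floor, -2.23 for Acvr2a. Bambi, a pseudoreceptor without a kinase domain, was dim in both samples (35.1 in generated and 42.7 in parental cells). Bambi-ps1, a pseudogene copy of Bambi, read 533 in the generated cells and 287 in the parental cells. A probe may read both of such near-identical copies, so these values are uncertain. Because the activin receptors differed in direction, their start regions are given side by side with the same marks. The window of Acvr2a is chr2:48813859-48814158 and that of Acvr2b chr9:119401928-119402227, both on the plus strand.
Acvr2a: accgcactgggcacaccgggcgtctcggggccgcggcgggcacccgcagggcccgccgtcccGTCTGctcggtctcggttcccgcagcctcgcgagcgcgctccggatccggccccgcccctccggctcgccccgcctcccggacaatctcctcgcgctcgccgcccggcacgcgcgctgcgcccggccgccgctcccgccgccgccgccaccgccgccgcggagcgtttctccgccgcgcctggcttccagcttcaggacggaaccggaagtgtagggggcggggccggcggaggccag
Acvr2b: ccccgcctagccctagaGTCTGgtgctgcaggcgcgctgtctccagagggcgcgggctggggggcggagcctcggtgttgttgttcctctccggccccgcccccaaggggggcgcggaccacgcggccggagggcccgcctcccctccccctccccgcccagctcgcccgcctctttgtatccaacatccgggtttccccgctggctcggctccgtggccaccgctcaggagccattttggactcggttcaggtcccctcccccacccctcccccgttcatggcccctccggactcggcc
Each held 1 CAGAC, read as GTCTG on the strand shown, and no GGCGCC. Both were rich in G and C, at 80.3% for Acvr2a and 73.3% for Acvr2b, with 54 and 27 CpG.

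All 4 measured receptor-regulated Smads were 2-fold or more lower, as were 22.6% of tested array genes. The common Smad was close in both samples. Smad3, of the TGF-beta and activin branch, was at 970 in the generated cells and 3594 in the parental cells, 3.70-fold lower. Smad2, its partner in that branch, was at 681 in the generated cells and 1549 in the parental cells, 2.28-fold lower. Smad1, of the BMP branch, was at 466 in the generated cells and 1753 in the parental cells, 3.76-fold lower. Smad5, also of the BMP branch, was read by 2 probes, at 204 and 345 in the generated cells against 1200 and 1665 in the parental cells. Both Smad5 probes were lower, with log2 differences of -2.55 and -2.27, so they differed from each other by less than the probe SD. Smad4 was at 2037 in the generated cells and 2088 in the parental cells, a log2 difference of -0.04. The receptor-regulated Smads of both branches thus had log2 differences between -2.41 and -1.19. The value for Smad2, -1.19, was little larger than the probe SD. Those of Smad1 (-1.91) and Smad3 (-1.89) also lay inside 2 probe SD.

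Nuclear corepressors limit transcription by Smads, and here they were divided. Ski was at 1504 in the generated cells and 3497 in the parental cells, 2.33-fold lower. Its log2 difference, -1.22, was little larger than the probe SD. Skil, which encodes SnoN and is itself induced by TGF-beta, was at 846 in the generated cells and 2616 in the parental cells, 3.09-fold lower. Tgif2, a homeodomain corepressor, was at 5689 in the generated cells and 1836 in the parental cells, 3.10-fold higher. Its relative Tgif1 was at 3184 in the generated cells and 4329 in the parental cells, inside 2-fold. The log2 differences of Skil (-1.63) and Tgif2 (1.63) lay inside 2 probe SD. Smurf1, a ubiquitin ligase that marks Smads and receptors for degradation, was at 714 in the generated cells and 1385 in the parental cells, which is 1.94-fold lower.

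Id genes are immediate targets of BMP signalling whose proteins block basic helix-loop-helix factors. The 3 measured ones were lower, as were 22.6% of tested array genes. Id3 was at 813 in the generated cells and 12091 in the parental cells, 14.9-fold lower. Id2 was at 236 in the generated cells and 1139 in the parental cells, 4.82-fold lower. Id1 was at 453 in the generated cells and 1029 in the parental cells, 2.27-fold lower, or -1.18 on the log2 scale and little past the probe SD. The 3 Id genes were thus lower in the same sample in which the ligand genes Bmp2, Bmp4 and Bmp7 were higher. The windows of Id3 (chr4:136143572-136143871, plus strand) and Id2 (chr12:25096043-25096342, minus strand) are shown with the same marks, as those of direct targets.
Id3: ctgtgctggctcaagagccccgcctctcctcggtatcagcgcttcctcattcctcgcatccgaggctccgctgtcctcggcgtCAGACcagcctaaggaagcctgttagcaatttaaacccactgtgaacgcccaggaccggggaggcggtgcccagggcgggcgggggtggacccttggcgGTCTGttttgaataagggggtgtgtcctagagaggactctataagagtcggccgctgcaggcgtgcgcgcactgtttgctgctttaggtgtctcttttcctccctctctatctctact
Id2: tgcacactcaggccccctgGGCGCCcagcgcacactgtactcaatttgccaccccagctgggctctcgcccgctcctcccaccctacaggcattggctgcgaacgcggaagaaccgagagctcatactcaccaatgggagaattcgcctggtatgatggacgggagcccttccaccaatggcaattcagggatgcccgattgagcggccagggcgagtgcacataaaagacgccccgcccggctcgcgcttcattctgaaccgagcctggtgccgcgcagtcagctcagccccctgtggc
Id3 held 2 copies of CAGAC and no GGCGCC, whereas Id2 held 1 GGCGCC and no CAGAC.

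Across the pathway, 34 of the 49 genes matched a start region in the RefSeq table. CAGAC on either strand was in 8 of the 16 windows of lower genes and in 2 of the 4 of higher genes, where 48.6% of the 9162 array genes with such a window held it. Genes within 2-fold had it in 4 of 6 windows and dim genes in 6 of 8. GGCGCC was in 6 of the 16 windows of lower genes and in 0 of the 4 of higher genes, beside 19.0% of array genes. It was also in 2 of the 6 windows of genes within 2-fold and in 0 of the 8 of dim genes. The letters of the motifs can share bases where they adjoin, and overlapping copies were counted. G and C made up a median of 69.2% of the windows of lower genes and 68.2% of those of higher genes, against 59.7% over array genes. These counts describe short windows in few genes, and no test was made on them.

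Another 5 genes carried a pathway name and were set apart as having other main roles, although some of them also touch the pathway. Bmp1, a metalloproteinase that trims procollagens and also cleaves chordin, was dim at 49.7 in the generated cells against 2204 in the parental cells, at least 23.6-fold lower. Tgfb1i1, which encodes the focal adhesion adaptor Hic-5, was at 251 in the generated cells and 9021 in the parental cells, 35.9-fold lower. Fstl1, a glycoprotein secreted by mesenchymal cells, was at 1600 in the generated cells and 23210 in the parental cells, 14.5-fold lower. Tgfbrap1, a protein associated with TGF-beta receptors, was at 1426 in the generated cells and 3192 in the parental cells. Its log2 difference, -1.16, was little larger than the probe SD. Fstl5 was dim in both samples (40.8 in generated and 37.8 in parental cells). Without these 5 and Bambi-ps1, 20 of 43 genes were lower and 6 higher, and the median log2 difference was -0.96. Of all measured genes 19.2% were lower and 18.8% higher.

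Other components of the pathway were taken from a list of 70 genes outside the name pattern. Of 41 measured 15 were 2-fold or more lower, 6 higher, 18 within 2-fold and 2 dim. Among the 9766 tested array genes 22.6% were lower and 22.1% higher. The median log2 difference of the 41 was -0.28. With dim values set to the floor 5 were higher, since Hjv, a BMP co-receptor gene, was dim in the parental cells (173 in generated and 82.4 in parental cells). Those lowest were Bgn, a proteoglycan that binds TGF-beta (477 in the generated cells and 39481 in the parental cells, 82.8-fold lower), and Lrrc32, which docks latent TGF-beta at the cell surface (96.1 in generated and 2947 in parental cells, 30.7-fold lower). Cd109, a surface protein that restrains TGF-beta receptors, was dim at 61.2 in the generated cells against 1739 in the parental cells, at least 18.6-fold lower. At the other end were Lefty1, an antagonist of Nodal (3055 in generated and 226 in parental cells, 13.5-fold higher), Lefty2 (390 in generated and 36.7 in parental cells, at least 4.16-fold higher) and the ubiquitin ligase gene Wwp2 (2345 in generated and 778 in parental cells, 3.01-fold higher). Eng, the co-receptor endoglin, was at 1025 in the generated cells and 715 in the parental cells. Among the adaptors of the TGF-beta activated kinase, Tab2 was at 108 in the generated cells and 1290 in the parental cells, 12.0-fold lower, while Tab1 (5123 in generated and 4202 in parental cells), Tab3 (829 in generated and 487 in parental cells) and the kinase gene Map3k7 itself (1333 in generated and 1307 in parental cells) were inside 2-fold. Tab2 and its partners were picked after their values were seen.

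Genes that respond to the pathway were listed by branch. Of 24 TGF-beta response genes listed outside the set 12 were measured, so the values cover only part of the list. Of the 12 measured 9 were lower and 1 was higher, with a median log2 difference of -3.45. Among the 9766 tested array genes 22.6% were lower and 22.1% higher. Timp3, an inhibitor of metalloproteinases, was at 83.7 in the generated cells and 22868 in the parental cells, at least 245-fold lower, Tnc, which encodes tenascin C, at 125 in the generated cells and 21479 in the parental cells, 172-fold lower, and Cdkn2b, the p15 gene, at 123 in the generated cells and 8316 in the parental cells, 67.6-fold lower. Snai1 was the higher one (1833 in generated and 833 in parental cells, 2.20-fold), and Pdgfb (136 in generated and 142 in parental cells) and Cdkn1a (16492 in generated and 24101 in parental cells) lay inside 2-fold. Several of these genes are also genes of fibroblasts in general, and Thy1 and S100a4 were 349-fold and 157-fold lower beside them, a part that was not tested. The Id genes, Nog, Grem1 and Bambi of the BMP response list are described above. Of its 16 genes outside the set 9 were measured, with 3 lower, 2 higher and a median of 0.37. Gata6, an endoderm and mesoderm factor, was 12.2-fold lower (142 in generated and 1733 in parental cells), Hes1, a repressor known mainly as a Notch target, 7.12-fold lower (203 in generated and 1446 in parental cells), and Msx1, a homeobox gene, 2.37-fold lower (149 in generated and 353 in parental cells). Dusp9, a phosphatase of ERK that BMP signalling induces in mouse ES cells, was 9.23-fold higher (2147 in generated and 233 in parental cells), Sp7, a bone factor, 2.04-fold higher (214 in generated and 105 in parental cells), and Tbx3 was at 2512 in the generated cells and 1647 in the parental cells. For Nodal and activin 4 of 10 response genes listed outside the set were measured. Lefty1 and Lefty2, which are the same genes as on the list of other components, were higher. Gsc was at 261 in the generated cells and 353 in the parental cells, and Mixl1 was dim.

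**Figure D4:**
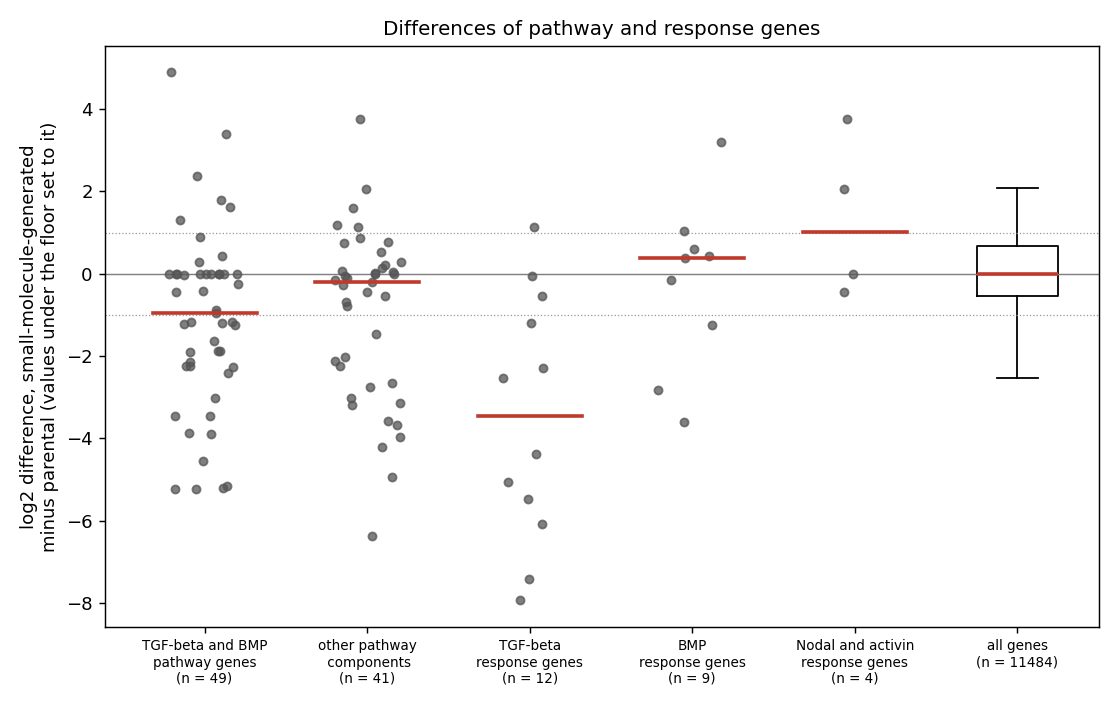
Log2 difference of small-molecule-generated over parental intensity, with dim values set to the floor, for each of the 49 pathway genes and for 4 lists of other genes (points, red bar at the median), and for all 11484 genes (box of the quartiles with whiskers at the 5th and 95th percentiles). Medians were -0.96 for the pathway genes, -0.19 for other components, -3.45 for TGF-beta response genes, 0.37 for BMP response genes and 1.02 for Nodal and activin response genes. The last list holds only 4 genes, of which Lefty1 and Lefty2 are also plotted among the other components.

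Macrophage and leukocyte markers, whose cells make TGF-beta, were set beside these values. Of 8 measured of 12 markers 4 were lower, 1 was higher and 3 lay within 2-fold. Over all tested array genes 22.6% were lower and 22.1% higher. The summed intensity of the markers was 13285 in the generated cells, most of it Laptm5 (12204), and 8088 in the parental cells. Without Laptm5 the sums were 1081 in the generated cells and 6800 in the parental cells. C1qa (35.7 in generated and 3198 in parental cells) and C1qc (66.6 in generated and 457 in parental cells) were dim in the generated cells, and no marker was listed at 0. Itgam (75.8 in generated and 134 in parental cells) was dim in the generated cells too, but within 2-fold. Of 3 measured of 8 smooth muscle and pericyte markers 1, Cspg4, was lower (127 in generated and 802 in parental cells), and the summed intensity was 1351 in the generated cells and 2661 in the parental cells. The part of such cells in the pathway differences was not tested.

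By the same pattern, 37 further protein-coding genes of the RefSeq annotation were not analysed here. They include the receptor genes Tgfbr1, Tgfbr2, Bmpr1a, Bmpr2 and Acvr1b, the inhibitory Smad genes Smad6 and Smad7, and Nodal, Fst, Inhbb, Id4 and Smurf2. The counts above therefore describe 48 of 85 such genes, and Bambi-ps1.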

How the data were processed

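RNA of a sample of small-molecule-generated cells (generated cells) and a sample of parental cells was labelled with Cy5 and hybridised to 1-colour arrays of the Phalanx OneArray mouse design, version v2, per the labels. The authors deposited normalised intensities on a linear scale. Steps of scanning, background correction, normalisation and probe filtering were not given in the sources used here. Both columns had nearly equal medians (305 in the generated cells and 304 in the parental cells), so a difference in total RNA cannot be seen. Of 13989 probes 12380 had a gene symbol in the platform annotation and 1609 were unnamed. Log2 intensities were averaged over the probes of a gene (Python 3.11.15, numpy 2.4.6, pandas 2.3.3). For the lists, symbols were updated through Entrez identifiers with RefSeq (assembly GRCm38.p6), which matched 12364 probes. With 1 column of values per group, a single array or a mean, there are no p-values, and precision is limited by the number of arrays. The computation was tested on simulated data. Pathway genes and lists were chosen with earlier results of these data known. All measured pathway genes are named, and of each list outside it the 3 highest and 3 lowest genes above the floor, plus Lefty1, Lefty2 and Eng. Foxh1, fixed by name too, was not analysed here, and 1 further gene fixed by name is not reported here. Alternatives were median, quantile and lowess (span 0.3, statsmodels 0.14.6) scaling, the brightest probe, an offset of 50, dim values set to the floor, other filters, a 4-fold rule, probes in place of genes and updated symbols.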

Additional observations from a re-analysis of the deposited data

How the results depend on the processing

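All 30 pathway genes that were 2-fold or more higher or lower kept that call under each of the 7 alternatives of scaling, probe choice, offset and floor that were run gene by gene, and no called gene changed sign. Some of these alternatives could hardly change a call. Median and quantile scaling moved the log2 differences little, and probe choice could alter only the 2 pathway genes with 2 probes. Ltbp4 and Smurf1 were called lower only with lowess centring (-1.05 and -1.12) and with each class of probe identifier centred on its median (-1.05 and -1.11), an alternative chosen after seeing the data. With a 4-fold rule on the values as given, dim values not set to the floor, 3 pathway genes were higher and 17 lower. Among all genes 734 were higher and 1010 lower, or 7.52% and 10.3% of those tested. With dim values set to the floor the pathway counts were 3 and 15. A limit at 2 SD of probe scatter, or 4.30-fold, was also chosen after seeing the data. With it, on the values as given, 3 pathway genes were higher and 16 lower. Among all genes 664 were higher and 940 lower, or 6.8% and 9.63% of those tested. With dim values set to the floor the pathway counts were 3 and 15. Both rules are stricter by construction. Under the other alternatives the count of higher genes stayed between 5 and 6 and that of lower genes between 17 and 26. Across those settings 19% to 25.4% of all tested genes were higher and 19.7% to 25.6% lower. The number of pathway genes tested changed with the setting, so the counts have unlike bases. The lowest count of lower genes came with genes required to be above the floor in both samples, which left 30 of the 39. There 20% of all tested genes were lower. The median log2 difference of the pathway genes ran from -1.63, when dim genes were left out, to -0.91 with an offset of 50. Log2 differences moved by more than the probe SD in 3 genes with the offset and in 4 with dim values set to the floor. No paired analysis was possible because each group had 1 column of values. For the same reason no replicate could be left out. Genes near the floor have only a bound, and the error of a culture is unknown.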
